A study of Homo sapiens with 2 samples.

Results

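The genes described here encode the machinery of chromosomal DNA replication and of the G1/S transition. They are 48 genes listed by name, a list drawn up with earlier results of these data known, and each had at least 1 probe set annotated with that single gene symbol among 18132 genes in the deposited table. Transcripts were profiled on Affymetrix arrays in HCT116, an established human line of colorectal carcinoma. One group was the scrambled control, which carried a scrambled hairpin (Scr), and the other the SUN2 knockdown, which carried the hairpin shSUN2-1. Each group held 1 array of total RNA from cells grown in DMEM with serum. SUN2 is an inner nuclear membrane protein that joins the nucleus to the cytoskeleton. The knockdown rests on 1 hairpin, so an effect of SUN2 loss and an effect of that hairpin on other transcripts cannot be told apart.

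Replication begins when the origin recognition complex, with CDC6 and CDT1, loads the ring-shaped MCM helicase onto DNA in G1, a step called licensing. CDC7 with DBF4 then helps to switch the helicase on together with CDC45 and the GINS complex, and polymerases copy the DNA behind it. Many of these genes are transcribed late in G1 under E2F factors, so their summed expression is widely read as a sign of cells entering S phase. In a bulk sample, fewer cells in S phase and less RNA per cell cannot be told apart.

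The promoters of these genes carried the letters of the E2F site more often than promoters in general. RefSeq windows of 300 bases, from 250 before to 50 after a transcription start (GRCh38.p14), were available for 43 of the 48 members. The E2F motif was searched on both strands as TTTCCCGC, TTTGGCGC, TTTCGCGC or TTTGCCGC, and overlapping matches were counted as 1 site. It was present in 24 of 56 member windows (42.9%) and in 3.31% of the 35116 windows of all genes, and some windows of 1 gene overlap. By gene it was found in 23 of 43 members. Further replication genes and G2/M genes, both listed below, held the E2F motif in 23.7% and 12.1% of their windows. The share was 4.64% in windows of all genes kept by the intensity cutoff described below. The CCAAT box, searched as CCAAT on both strands, was in 58.9% of member windows and 34.6% of all. It was not particular to the members, with 75.8% of G2/M windows and 55.3% of windows of the further replication genes. The cell cycle homology region of mitotic genes, searched as TTTGAA or TTCGAA, was in 7.14% of member windows, in 16.4% of all and in 63.6% of those of the G2/M genes listed below. These shares describe letters in a window and not binding. The 160 bases before the start are printed for 8 members, with E2F matches in capitals. MCM6 and E2F1 show paired sites, PCNA, POLA1 and POLA2 a single site, and PRIM1, FEN1 and ORC6 no match in the printed stretch. The last 3 are the members that differed by at least 0.25 between the arrays as deposited.
MCM6 (chr2:135876444-135876603, minus strand): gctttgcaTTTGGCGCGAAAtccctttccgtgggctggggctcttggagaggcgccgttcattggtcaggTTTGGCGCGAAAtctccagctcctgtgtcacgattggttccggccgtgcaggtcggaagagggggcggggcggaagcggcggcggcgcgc
E2F1 (chr20:33686386-33686545, minus strand): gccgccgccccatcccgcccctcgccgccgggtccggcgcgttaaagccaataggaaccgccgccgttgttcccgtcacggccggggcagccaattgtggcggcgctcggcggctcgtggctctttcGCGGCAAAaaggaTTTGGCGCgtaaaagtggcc
PCNA (chr20:5126623-5126782, minus strand): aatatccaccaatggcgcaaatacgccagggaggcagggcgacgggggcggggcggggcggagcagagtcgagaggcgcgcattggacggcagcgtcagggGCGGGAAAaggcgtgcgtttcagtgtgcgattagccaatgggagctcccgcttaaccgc
POLA1 (chrX:24693758-24693917, plus strand): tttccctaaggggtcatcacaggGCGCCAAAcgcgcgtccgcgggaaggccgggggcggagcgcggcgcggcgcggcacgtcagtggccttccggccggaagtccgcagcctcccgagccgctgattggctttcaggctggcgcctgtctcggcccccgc
POLA2 (chr11:65261802-65261961, plus strand): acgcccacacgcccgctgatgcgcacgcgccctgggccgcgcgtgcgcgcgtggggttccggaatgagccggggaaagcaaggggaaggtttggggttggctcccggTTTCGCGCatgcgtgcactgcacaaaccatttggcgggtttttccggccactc
PRIM1 (chr12:56752324-56752483, minus strand): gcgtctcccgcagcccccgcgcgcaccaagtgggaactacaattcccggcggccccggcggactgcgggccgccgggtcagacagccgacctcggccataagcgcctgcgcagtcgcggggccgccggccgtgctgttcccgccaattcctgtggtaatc
FEN1 (chr11:61792751-61792910, plus strand): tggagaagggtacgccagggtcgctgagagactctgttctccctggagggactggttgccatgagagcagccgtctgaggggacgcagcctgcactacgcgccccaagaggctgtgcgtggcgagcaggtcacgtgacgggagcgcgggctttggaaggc
ORC6 (chr16:46689499-46689658, plus strand): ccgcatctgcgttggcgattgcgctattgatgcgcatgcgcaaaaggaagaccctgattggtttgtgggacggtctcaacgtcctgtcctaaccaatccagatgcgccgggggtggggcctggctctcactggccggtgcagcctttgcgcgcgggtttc
The MCM6 sites read the same motif on both strands, which gave 4 matches in 2 sites. The median difference between the arrays was 0.06 in the 22 members past the filter on low values that held the motif and 0.05 in the 20 that did not, on the scale defined next. Within role groups it was 0.02 with (7 genes) and 0.10 without the motif (3 genes) for licensing. For the polymerase group it was -0.02 (6 genes) and 0.09 (7 genes). Genes that switch the helicase on had 0.07 with (4 genes) and 0.07 without (3 genes), and E2F factors 0.10 (3 genes) and 0.21 (1 gene). The nucleotide supply and chromatin groups had 1 gene with the motif each, TYMS and UHRF1, which lay above the other genes' medians.

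Values are probe set intensities, and differences are log2(intensity + 16) of the knockdown array minus the control array. A gene was represented by its brightest probe set over both arrays and was kept when that probe set reached the overall probe set median, an intensity of 108.1. This kept 12220 genes and 47 of the 48 members. CLSPN, which relays the replication checkpoint, read 84.6 in the control and 89.2 in the knockdown array and was not kept. With 1 array per group there is no replicate, no test and no error between cultures for any value below. The one available error is the scatter of probe sets around the mean of their gene, an SD of 0.09 over 5786 genes with at least 2 probe sets past the filter. It measures how well probes agree on these arrays, not how cultures vary.

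The transcript targeted by the hairpin, SUN2, was reduced slightly. On its brightest probe set it read 497.7 in the control and 407.3 in the knockdown array, 81.8% of control. All 6 SUN2 probe sets were lower, and the 4 past the filter differed by -0.39 to -0.07. The intensities of both arrays correlated with r = 0.995 over probe sets. The epithelial markers EPCAM, CDH1, KRT8, KRT18 and KRT19 all passed the filter, which fits the label of an epithelial line. All 5 were higher in the knockdown array, by 0.04 to 0.34, with a median of 0.22. Of 14 markers of fibroblasts, immune cells and endothelium, 13 were measured, 6 passed the filter and all 6 were lower, by -0.12 to -0.07. The summed intensity of all 13 measured markers, with those below the filter, was 1533 in the control and 1450.0 in the knockdown array. The part of either marker group in the results was not tested.

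Replication and G1/S genes differed little between the arrays, as did genes in general. The median absolute difference was 0.10 for members and 0.09 for all genes. No member was 1.5-fold higher or lower, where 0.336% of all genes were at least 1.5-fold higher and 0.0245% at least 1.5-fold lower. A count of 0 among 47 members is close to these shares. Differences of members past the filter ran from -0.25 to 0.26, with a median of 0.03 and quartiles of -0.03 and 0.14. The median over all 12220 genes was -0.0009, with quartiles of -0.08 and 0.11. A total of 30 members were higher and 17 lower, a share higher of 63.8% against 49.8% of all genes. After quantile normalization the split was 23 higher and 24 lower. FEN1 and ORC6 were at least 0.25 higher, as were 6.91% of all genes, and PRIM1 was at least 0.25 lower, as were 1.05%. The difference lay within the SD of probe sets for 21 of the 47 members (44.7%), against 52.0% of all genes.

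Differences over all genes moved with intensity, and members lay mostly among bright genes. When all genes past the filter were divided into 10 bins by intensity, the median difference was -0.04 in the dimmest bin and 0.10 in the brightest. Of the 47 members, 27 fell in the 3 brightest bins. The median of all genes in each member's own bin had a median of 0.04 over the members, against 0.03 for the members themselves. With a loess correction for this trend the members' median was 0.02 and that of all genes -0.01, with 28 members higher and 19 lower. After quantile normalization the medians were -0.003 and -0.03. The members' median minus that of all genes was 0.03 as reported, 0.03 with loess and 0.03 after quantile normalization. Among brighter genes only, with the filter at the 75th percentile, it was -0.008. Without the probe set classes that can match several transcripts it was 0.10, so its size depended on the setting.

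**Figure D1:**
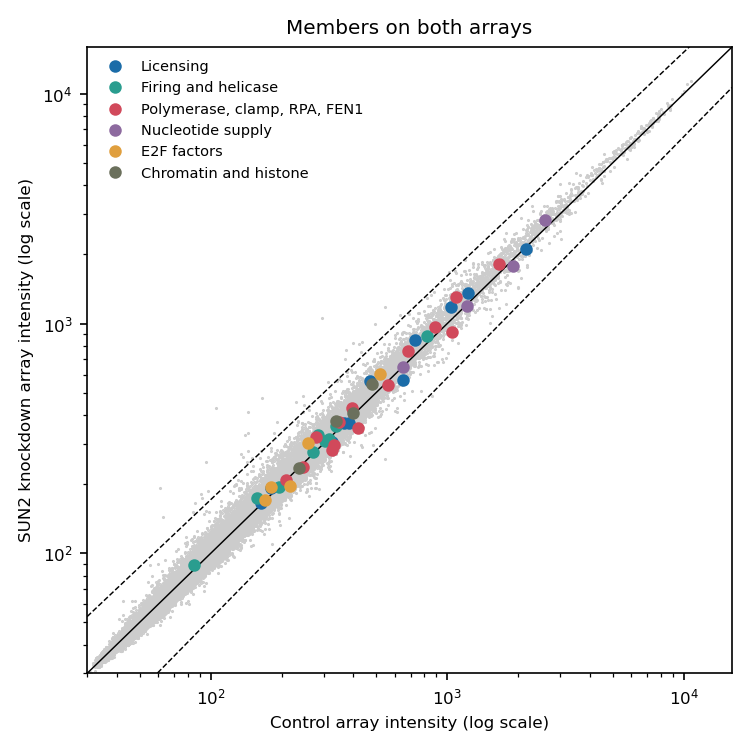
Intensity of the brightest probe set of each member on the control array (x axis, log scale) and the SUN2 knockdown array (y axis, log scale), coloured by role, over single-symbol probe sets in grey. The solid line marks equal values and the dashed lines a 1.5-fold difference on the log2(intensity + 16) scale; each of the 48 members lies between the dashed lines.

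Among licensing genes, the factors other than the helicase were higher on their brightest probe sets, and the helicase subunits were mixed. The median over the 12 licensing members was 0.06, with 8 higher and 4 lower. The 6 factors other than the helicase, namely ORC1, ORC2, ORC6, CDC6, CDT1 and GMNN, were all higher, by 0.02 to 0.25. This division, and those of the replication fork below, were made after the values were seen. CDT1 turned to -0.03 after quantile normalization and to -0.02 with loess, while the other 5 stayed higher under each normalization tried.

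ORC6, the smallest subunit of the origin recognition complex, read 472.1 in the control and 564.8 in the knockdown array. The difference of 0.25 (1.19-fold) was the largest of the licensing group, on the gene's 1 probe set, and was 0.16 after quantile normalization. ORC1, the subunit whose level follows the cell cycle, read 163.4 and 166.1, a difference of 0.02. ORC2 read 179.4 and 192.8, a difference of 0.10. In units of the probe set SD, ORC6 differed by 2.66, ORC2 by 1.02 and ORC1 by 0.23. CDC6, the ATPase that recruits the helicase, read 727.9 and 848.7, a difference of 0.22. Its second probe set went the other way by a little, with 0.04 lower in the knockdown array. GMNN encodes geminin, the inhibitor of CDT1 that blocks a second round of loading. It read 1037 and 1179, a difference of 0.18 on 1 probe set, which dropped to 0.06 after quantile normalization. CDT1 read 364.6 and 370.9 on its brightest probe set, and over 3 probe sets past the filter it ranged from -0.16 to 0.02. The mean of the 3 was -0.06, so CDT1 was higher on its brightest probe set only.

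The MCM2 to MCM7 subunits form 1 hexamer and were lower in 4 of 6 cases, with a median of -0.05. MCM3 read 649.1 in the control and 567.4 in the knockdown array, a difference of -0.19. Over 4 probe sets past the filter it ranged from -0.19 to 0.08, so the low value rests on the brightest, which differed by -0.29 after quantile normalization. MCM4 read 1224 and 1361, a difference of 0.15. All 4 MCM4 probe sets past the filter were higher, by 0.12 to 0.20. The brightest differed by 0.03 after quantile normalization and 0.05 with loess, within the probe set SD. MCM2 read 326.0 and 305.5 (-0.09), with 3 of 4 probe sets lower. MCM5 read 384.7 and 368.0 (-0.06) on 1 probe set. MCM6 read 342.9 and 366.0 (0.09), and its second probe set past the filter was higher by 0.07. MCM7 read 2153 and 2108 (-0.03), while its other 2 probe sets past the filter were higher, the most by 0.08. Averaged over probe sets, 3 subunits were higher and 3 lower, so the hexamer had no common direction. Quantile normalization kept the 2 higher and 4 lower, with a median of -0.13.

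Genes that switch the loaded helicase on were nearly level. The 8 members of this group past the filter had a median of 0.05, and 6 were higher. MCM10, which helps to activate the helicase, read 283.6 in the control and 328.7 in the knockdown array, a difference of 0.20. Both of its probe sets past the filter were higher, the other by 0.14, and the range over all settings was 0.16 to 0.23. This was 2.14 times the probe set SD, against 1.55 for GINS3, the next of the group. The kinase CDC7 read 270.5 and 276.8 (0.03), and its activating subunit DBF4 read 339.6 and 358.2 (0.07). DBF4 had 6 probe sets past the filter, 5 of them higher, from -0.01 to 0.18. CDC45 read 194.9 and 194.0 (-0.01), and its second probe set past the filter was lower by 0.10 in the knockdown array. The 4 subunits of GINS, which joins CDC45 and the MCM ring, were GINS1 at 0.10, GINS2 at 0.02, GINS3 at 0.15 and GINS4 at -0.004. GINS1 read 821.4 and 881.7 and turned to -0.02 after quantile normalization. GINS3 read 156.4 and 174.9 and stayed between 0.12 and 0.19.

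**Figure D2:**
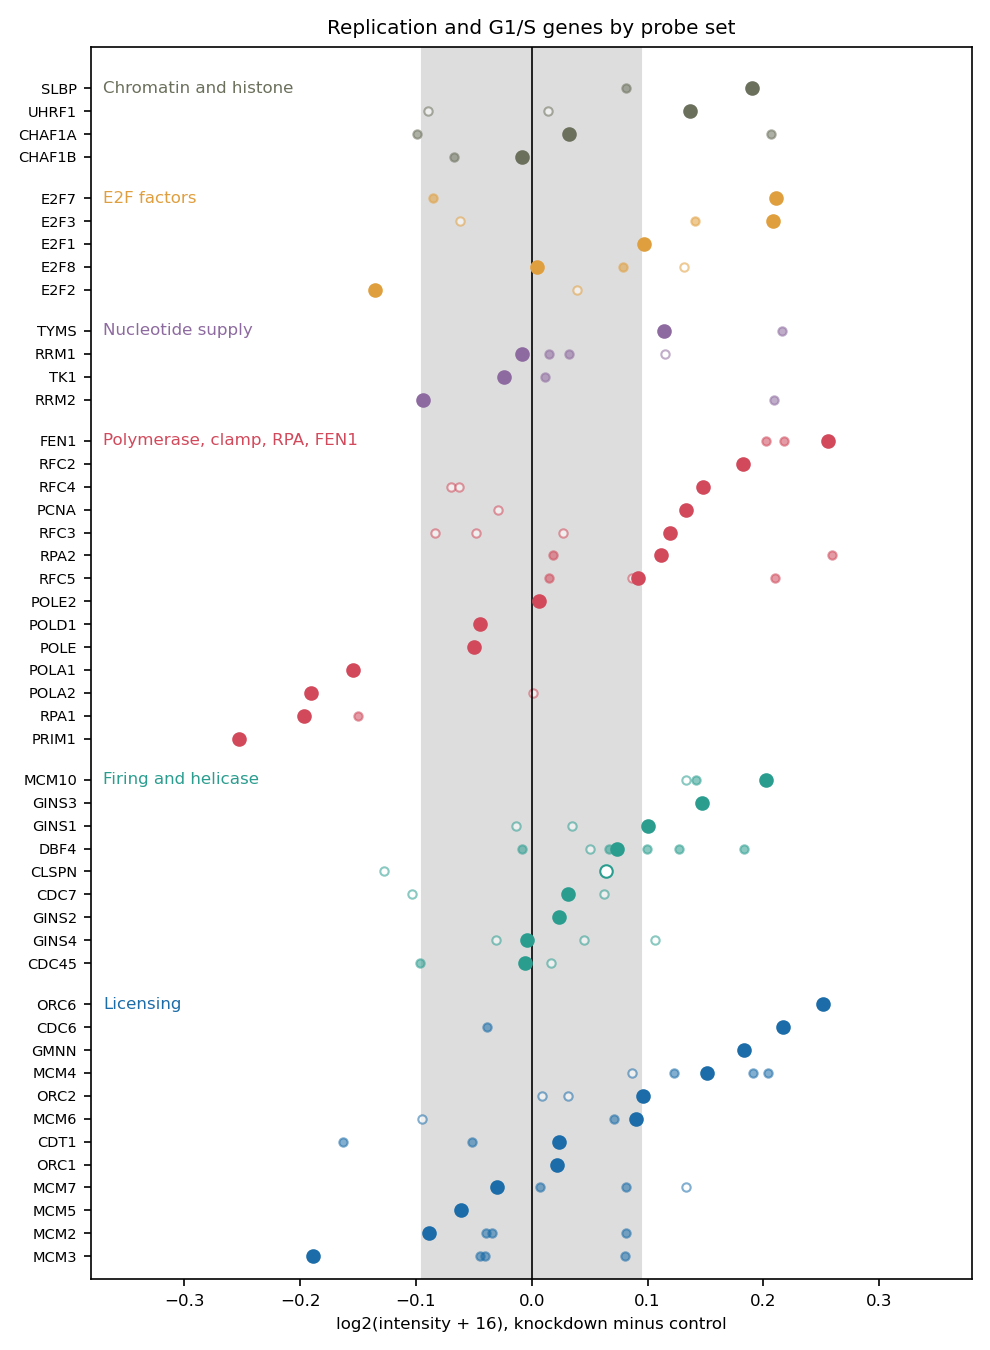
Difference of each probe set of the 48 members on the log2(intensity + 16) scale, knockdown minus control (x axis), with genes grouped by role and ordered by difference. Large points are the brightest probe set of a gene, small points its other probe sets, open points lie below the filter, and the grey band is the probe set SD of 0.09 on either side of 0. PRIM1 at -0.25 and FEN1 at 0.26 mark the ends of the range of brightest probe sets.

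Within the polymerase group, priming genes were lower and most clamp and clamp loader genes higher. The 14 members had a median of 0.05, with 8 higher and 6 lower. Of these 14, 4 lay within the probe set SD (28.6%), against 52.0% of all genes. DNA polymerase alpha with its primase starts each new strand by laying down a short RNA and DNA primer. All 3 of its members were lower. PRIM1, the catalytic primase subunit, read 420.1 in the control and 350.0 in the knockdown array, a difference of -0.25 (1.19-fold lower). POLA2, the regulatory subunit, read 324.2 and 282.1 (-0.19), and its second probe set, below the filter, differed by 0.0014. POLA1, the catalytic polymerase subunit, read 332.1 and 296.7 (-0.15). PRIM2, the large primase subunit, is not a member and was taken from the list of other replication genes. It read 161.3 and 141.4 (-0.17), with 0.02 on a probe set below the filter. Each of these 4 genes had 1 probe set past the filter. The 4 stayed lower under each of the 11 alternatives in which they were measured, with medians from -0.22 to -0.12. The pseudocounts and filters among these cannot turn the direction of a probe set, so part of that outcome was fixed beforehand. The median was -0.22 after quantile normalization and -0.20 with loess.

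RPA1, the large subunit of the protein that coats single-stranded DNA, was lower too. It read 1051 in the control and 914.8 in the knockdown array, a difference of -0.20, and its second probe set differed by -0.15. The brightest differed by -0.33 after quantile normalization and -0.30 with loess. Its partner RPA2 read 889.1 and 962.1 (0.11), with all 3 probe sets higher, by 0.02 to 0.26. RPA2 turned to -0.006 after quantile normalization. RPA3, the small subunit, is not a member and differed by -0.05. RPA2 thus went against the other 2 subunits as deposited, whereas all 3 were lower after quantile normalization.

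The sliding clamp and the 4 small subunits of its loader were higher as deposited, and by less once intensity was corrected for. PCNA, the clamp, read 1649 in the control and 1810 in the knockdown array, a difference of 0.13, and 0.03 after quantile normalization. Its second probe set, below the filter, differed by -0.03. The loader subunits RFC2, RFC3, RFC4 and RFC5 differed by 0.18, 0.12, 0.15 and 0.09. After quantile normalization they differed by 0.14, 0.05, 0.04 and 0.04, and with loess by 0.16, 0.07, 0.06 and 0.05. Of these subunits only RFC2 then lay outside the probe set SD. RFC2 read 279.9 and 319.8 on its 1 probe set, of the class that can match other transcripts. RFC3 read 394.7 and 430.1, and the mean with its 3 dimmer probe sets, all below the filter, was 0.004. RFC4 read 684.1 and 759.8, while its 2 other probe sets, both below the filter, were lower, so that their mean was 0.005. RFC5 read 347.8 and 371.8, and the 3 RFC5 probe sets past the filter were each higher, by 0.02 to 0.21. The large subunit RFC1 differed by -0.02, and CHTF18 and DSCC1 of an alternative loader by -0.07 and -0.16. These 3 are not members.

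FEN1, the nuclease that trims the flap between lagging-strand fragments, was among the members with the largest differences. It read 1085 in the control and 1299 in the knockdown array, a difference of 0.26 (1.19-fold). Its other 2 probe sets read 302.7 and 354.7, and 209.4 and 243.4, so all 3 were higher, by 0.20 to 0.26. The brightest probe set differed by 2.71 times the probe set SD and by 0.13 after quantile normalization. LIG1, which seals those fragments and is not a member, was lower by 0.11 on its brightest probe set in the knockdown array. The 6 genes PCNA, RFC2 to RFC5 and FEN1 stayed higher under each of the 11 alternatives in which they were measured, with medians from 0.05 to 0.15. Here too the pseudocounts and filters could not turn the direction of a probe set. The median fell to 0.05 after quantile normalization and to 0.06 with loess.

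The replicative polymerases themselves differed little as deposited. POLD1, the catalytic subunit of the lagging-strand polymerase delta, read 246.1 and 238.1 (-0.04). POLE, that of the leading-strand polymerase epsilon, read 562.0 and 542.5 (-0.05). POLE2, its second subunit, read 207.3 and 208.3 (0.007). All 3 lay within the probe set SD, on 1 probe set each, but POLE differed by -0.15 after quantile normalization and -0.13 with loess.

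**Figure D3:**
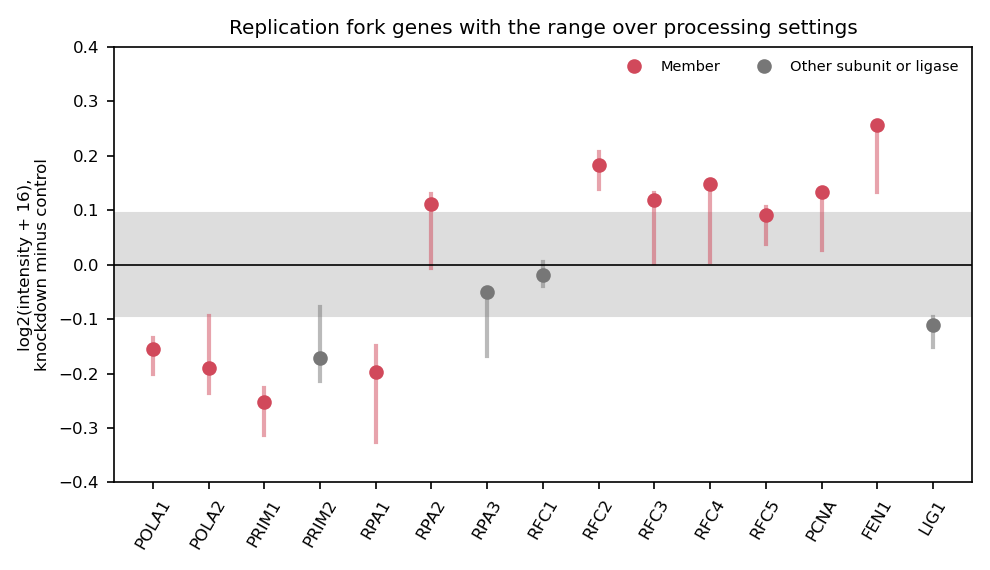
Difference of the brightest probe set (points, log2(intensity + 16), knockdown minus control) for genes of the replication fork, with bars for the lowest and highest value over the processing settings and the grey band for the probe set SD. The 4 polymerase alpha and primase genes and RPA1 lie below 0 over their whole range, and RFC2 to RFC5, PCNA and FEN1 above it.

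Nucleotide supply genes were level in the brightest probe sets and disagreed within genes. Their median was -0.02, with 1 of 4 higher. RRM1, the large subunit of ribonucleotide reductase, read 652.8 in the control and 648.9 in the knockdown array (-0.01). RRM2, the S-phase subunit that limits the enzyme, read 1904 and 1784 (-0.09) on a probe set of the class that can match other transcripts. Its second probe set read 871.6 and 1010 and was higher by 0.21, so RRM2 had no settled direction. TYMS, which makes thymidylate, read 2598 and 2813 (0.11), and its second probe set was higher by 0.22. Its brightest probe set differed by only 0.006 after quantile normalization and 0.008 with loess. TK1, the salvage kinase for thymidine, read 1207 and 1187 (-0.02). The group's median was -0.13 after quantile normalization, -0.11 with loess and 0.07 without the probe set classes that can match several transcripts.

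The E2F factors, which drive or restrain this programme, were mixed. E2F3, an activator, read 521.3 in the control and 604.7 in the knockdown array (0.21), and its second probe set past the filter was higher by 0.14. Another E2F3 probe set, below the filter, differed by -0.06. E2F1, the best known activator, read 179.8 and 193.4 (0.10) on 1 probe set. E2F2, the third activator, read 216.6 and 195.8 (-0.13). E2F7, an atypical repressor, read 258.7 and 301.8 (0.21), and its second probe set differed by -0.09. E2F8, the other atypical repressor, read 169.8 and 170.4 (0.005). Activators and repressors were thus both found among the higher values, and the group's median was 0.10.

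In the group of chromatin and histone members, SLBP was higher, UHRF1 was higher on its brightest probe set and the CAF-1 subunits were nearly level. SLBP, which binds the stem-loop of replication-dependent histone transcripts, read 478.7 in the control and 548.4 in the knockdown array (0.19), and its second probe set was higher by 0.08. UHRF1, which brings the maintenance methyltransferase to newly made DNA, read 340.0 and 375.4 (0.14). Its 2 other probe sets, both below the filter, differed by -0.09 and 0.01, and the mean of all 3 was 0.02. CHAF1A read 398.9 and 408.3 (0.03), and its 3 probe sets ran from -0.10 to 0.21. CHAF1B read 235.9 and 234.4 (-0.01). Over the 24 members with at least 2 probe sets past the filter, all probe sets agreed in direction for 13 (54.2%), against 63.9% of all such genes. These shares were not matched for the number of probe sets per gene. The SD of probe sets around their gene's mean was 0.092 for these members and 0.094 over all such genes.

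Licensing, polymerase and nucleotide supply members had medians of 0.06, 0.05 and -0.02 as deposited. After quantile normalization they were 0.03, -0.009 and -0.13, and with loess 0.04, 0.01 and -0.11, so the distance of the nucleotide supply genes from the others depended on the normalization. The polymerase group had quartiles of -0.13 and 0.13, against -0.04 and 0.16 for licensing and -0.04 and 0.02 for nucleotide supply. No test of these differences was possible.

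**Figure D4:**
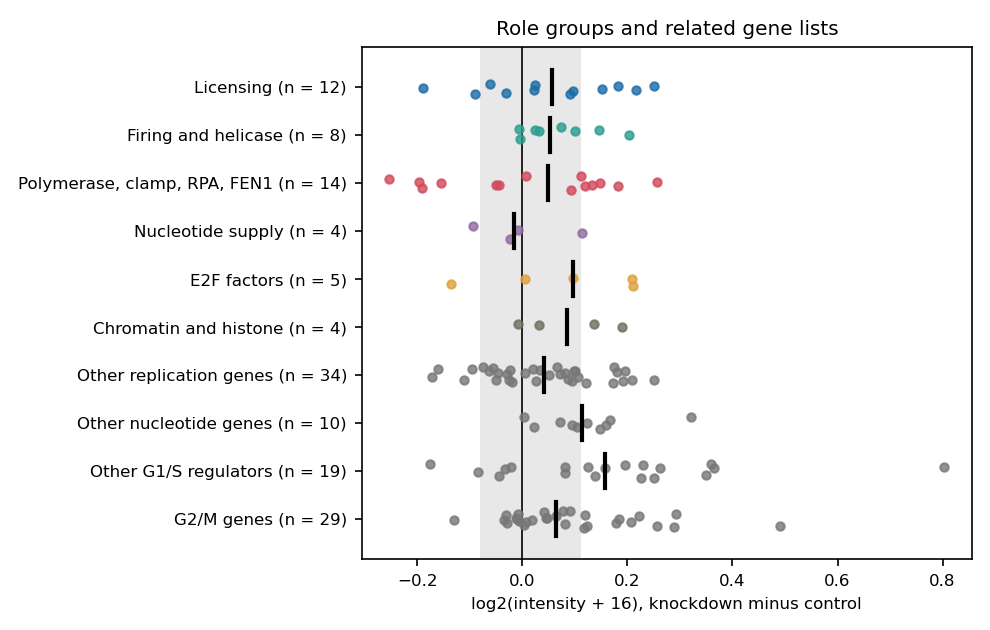
Difference of each gene past the filter (points, log2(intensity + 16), knockdown minus control) by role group and in 4 related lists, with black bars for medians. The grey band spans the quartiles of all 12220 genes, -0.08 to 0.11; CCNE2 at 0.80 is the point farthest to the right.

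Other genes of the replication pathway also differed little. Of 36 further replication genes, 34 passed the filter, with a median of 0.04, 21 higher, 13 lower and none past 1.5-fold in either direction. The share higher was 61.8%, against 49.8% of all genes. TOPBP1, which helps to load CDC45 at origins, was the highest at 0.25, followed by the origin subunit ORC4 at 0.21. TOPBP1 differed by 0.05 on its second probe set. PRIM2 was the lowest, followed by DSCC1, a clamp loader subunit that aids cohesion, at -0.16 and at -0.31 on its second probe set. Of 11 further nucleotide synthesis genes, 10 passed the filter and all 10 were higher, against 49.8% of all genes. Their median was 0.11, and over all genes the median difference rose with intensity, as described above. CTPS1, which makes CTP, led the nucleotide list at 0.32, from 250.6 to 316.9, followed by CAD, the first enzyme of pyrimidine synthesis, at 0.17. DUT and SAMHD1 were the lowest of the list, at 0.002 and 0.02.

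Regulators of the G1/S transition included the one gene of these lists past 1.5-fold. Of 20 such regulators, 19 passed the filter, with a median of 0.16. The share higher was 73.7% (14 higher, 5 lower), against 49.8% of all genes, and 1 was past 1.5-fold. That gene was CCNE2, a cyclin that activates CDK2 on entry to S phase, which read 184.4 in the control and 333.7 in the knockdown array, a difference of 0.80 (1.74-fold). Its second probe set lay below the filter and read 59.4 and 61.1, a difference of 0.03, and the mean of both was 0.42. TFDP1, the partner that E2F factors need to bind DNA, read 828.1 and 1072 (0.37), with -0.05 on its second probe set. CDKN1A, an inhibitor of cyclin-dependent kinases, differed by 0.36 and by 0.47 on its second probe set. The cyclin CCNE1 differed by 0.35, and by 0.08 on its second probe set. Both genes were named after their values were seen. On the brightest probe set, 6 of the 19 were at least 0.25 higher, against 6.91% of all genes. The count at least 0.25 lower was 0, against 1.05%. Second probe sets of the 6, CDKN1A apart, differed by only -0.05 to 0.12, some of them below the filter. TFDP2, a related partner, was lower (-0.18), as was the transcription factor MYBL2 (-0.08). G2/M genes, 29 of 30 of which passed the filter, had a median of 0.06, close to that of the members at 0.03. CDC25B, a phosphatase that activates mitotic CDK1, was their highest at 0.49, and the proliferation antigen MKI67 followed at 0.29. CDC25C (-0.13) and TTK (-0.03) were the lowest. These lists describe the same arrays, and no test of a difference between them was possible.

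**Figure D5:**
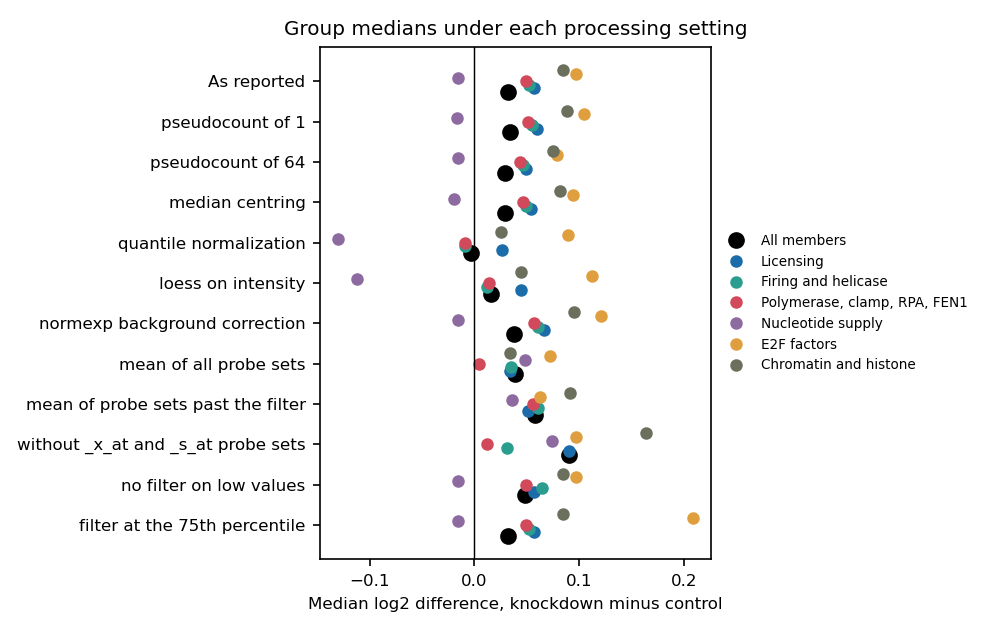
Median difference of all members and of each of the 6 role groups (x axis, log2, knockdown minus control) under the reported processing and each of 11 alternatives (y axis). The median of all members lies between -0.003 and 0.09 under each setting, and that of the nucleotide supply genes between -0.13 and 0.07.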

How the data were processed

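Total RNA of 1 scrambled control and 1 SUN2 knockdown sample was labelled from 100 ng, per the labels' protocols. The authors deposited probe set intensities on a linear scale. MAS5 and RMA are named in the submitters' processing notes without saying which made these values, and how the arrays were scaled to each other is unknown. Background was left in these values: 23 background control probe sets read 31.2 to 1425 on the control array, and 20 of them were lower on the knockdown array. A fold therefore understates differences of dim genes. The number of arrays limits the precision.

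Of 49395 probe sets, 102 were controls, 44988 carried 1 gene symbol, 1832 several and 2473 none. Symbols were updated by Entrez ID for 44961. The table was read in Python 3.11.15, and limma 3.58.1 in R 4.3.3 gave the loess (span 0.3), quantile and normexp alternatives. The other alternatives were median centring, pseudocounts of 1 and 64, the mean of all or of the filtered probe sets, leaving out _x_at and _s_at probe sets, no filter and a filter at the 75th percentile. The steps were tested on simulated data. Members were named from their brightest probe set. The probe sets past the filter were described for members with differences of at least 0.25. The same was done for the largest differences and the brightest gene of each role group, while probe sets below the filter were given only in part. In other lists the 2 largest differences in each direction and any gene past 1.5-fold were named. RPA3, RFC1, LIG1, CHTF18, CDKN1A and CCNE1 were added outside this rule. Members and lists were chosen with earlier results of these data known.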

Additional observations from a re-analysis of the deposited data

How the results depend on the processing

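No member passed 1.5-fold in either direction under the 11 alternatives. With no replicates, a median that shifted by more than the probe set SD of 0.09 is given here. That SD describes single probe sets and is no error of a median. Of 88 medians recomputed, 85 shifted by less. The nucleotide supply median moved from -0.02 to -0.13 after quantile normalization and to -0.11 with loess. The E2F median moved from 0.10 to 0.21 with the filter at the 75th percentile, which left 3 of its 5 genes. The cause was not tested beyond that loss of genes. The medians of licensing (0.03 to 0.09), E2F (0.06 to 0.21) and chromatin members (0.03 to 0.16) stayed above 0 in each setting. Those of all members (-0.003 to 0.09), helicase activation (-0.009 to 0.06), polymerase (-0.009 to 0.06), nucleotide supply (-0.13 to 0.07) and the other replication genes (-0.03 to 0.06) crossed it. Of 30 higher members 22 kept their direction under every setting in which they were measured, and 12 of 17 lower ones. The same share over all genes is not given here, so these counts cannot be judged as high or low. Pseudocounts and filters cannot turn the direction of a probe set, and E2F8 counted as kept with values down to 0.001. No paired analysis was possible because there was a single array for each condition, which also left none to omit.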
